A study of Mus musculus with 3 samples.

Results

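Chromatin accessibility was examined at 10 genes of the Notch pathway and the segmentation clock (Dll1, Dll3, Notch1, Lfng, Hes1, Hes5, Hes7, Nrarp, Mesp2 and Ripply2) in mouse embryonic stem (ES) cells differentiated towards the caudal epiblast. Members were the peaks of the deposited ATAC-seq lists that overlapped the body of 1 of these genes or the 50 kb on either side of it, with gene models from GENCODE M21 on mm10. Peaks of the 3 lists that overlapped by at least 1 bp were joined into regions. The 10 genes held 216 of 219488 regions, with 11 to 37 regions per gene. In ATAC-seq a transposase cuts and tags exposed DNA, so that a peak marks a stretch of accessible chromatin.

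All 3 samples were HM1 (129) cells taken at 72 h, after growth with bFGF (10 ng/ml) and the WNT secretion inhibitor LGK974 (5 µM), joined from day 2 by CHIR99021, an activator of WNT signalling. SOX2-ON and SOX2-OFF came from 1 engineered ES cell line that is Sox2-/- and carries a doxycycline-inducible SOX2 transgene (SOX2 TetON), and both were kept in 1 µg/ml doxycycline as ES cells. Doxycycline was maintained during differentiation in SOX2-ON and withdrawn in SOX2-OFF. CEpiLC, for caudal epiblast-like cells, was wild type and had no doxycycline. The comparison asked how accessibility at these genes differed between a high SOX2 state, a low SOX2 state and the wild type. Each group had 1 sample, so the spread between replicates is unknown and no p-value is given. In cells profiled in bulk, fewer cells with an open site and less opening per cell cannot be told apart.

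In Notch signalling, a ligand such as DLL1 on 1 cell activates a NOTCH receptor on its neighbour, the freed intracellular domain joins the DNA-binding protein RBPJ, and target genes of the HES family are switched on. In the presomitic mesoderm of the embryo tail, which arises from caudal epiblast progenitors, Hes7, Lfng and other Notch targets are expressed in waves that time the formation of somites, and MESP2 and RIPPLY2 place the somite boundaries. HES proteins repress transcription, including that of their own genes, through N-box and E-box sequences.

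The promoters of Hes5, Lfng and Hes7 are shown because they were the members whose RefSeq promoter sequence held the RBPJ letters GTGGGAA. RefSeq promoter sequences on GRCm38.p6 (250 bases before and 50 after the start) were given for 9 of the 10 genes, all but Hes1. Matches on either strand are in capitals, and the strand is that of the gene (plus for all 3 genes). In Hes5 the matches began 226 and 83 bases before the start, in Lfng 109 and in Hes7 180 bases before it. For Hes7 only 30 bases around each match are shown, since the rest lies in a UTR annotated for an overlapping gene. RBPJ letters were held by 6.21% of 20150 promoter rows of coding genes, and the CDX letters TTTATGG, found in Hes7, by 2.29%. A match is a description of the sequence and not a binding site.
Hes5 promoter, chr4:154960673-154960922: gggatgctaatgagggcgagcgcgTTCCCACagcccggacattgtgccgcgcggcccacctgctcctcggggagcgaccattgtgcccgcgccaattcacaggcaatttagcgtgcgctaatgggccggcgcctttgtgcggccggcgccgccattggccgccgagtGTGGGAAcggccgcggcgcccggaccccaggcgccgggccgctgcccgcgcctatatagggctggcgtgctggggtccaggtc
Lfng promoter, chr5:140607091-140607319: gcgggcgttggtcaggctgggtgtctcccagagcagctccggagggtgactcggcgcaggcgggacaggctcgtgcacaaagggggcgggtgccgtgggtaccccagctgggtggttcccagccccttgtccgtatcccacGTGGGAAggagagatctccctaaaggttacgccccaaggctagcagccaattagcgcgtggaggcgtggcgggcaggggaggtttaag
Hes7 RBPJ letters, chr11:69120262-69120291: cctcccctcacTTCCCACatttggggctag
Hes7 CDX letters, chr11:69120219-69120248: tattatacagcTTTATGGtccttaaaccag

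The centres of 2 regions outside promoters are also shown, on the plus strand of GRCm38, because SOX2-ON differed there from both other lists. The region upstream of Mesp2 was the single strong one that a list lacked, SOX2-ON, and the region downstream of Hes1, chosen after its values were seen, was the best ranked of those present only in SOX2-ON. Capitals mark the N-box letters CACNAG on either strand, which were found once in the Hes1 sequence. Neither sequence held the RBPJ letters or those searched for SOX (CATTGTT), TCF/LEF (CTTTGAT), T-box (AGGTGTGA) or CDX factors.
Mesp2, 21.5 kb upstream, chr7:79789133-79789332: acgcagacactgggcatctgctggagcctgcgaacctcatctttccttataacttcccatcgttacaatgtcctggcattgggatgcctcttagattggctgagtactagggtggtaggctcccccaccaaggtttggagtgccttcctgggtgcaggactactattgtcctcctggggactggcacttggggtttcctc
Hes1, 35.2 kb downstream, chr16:30099442-30099641: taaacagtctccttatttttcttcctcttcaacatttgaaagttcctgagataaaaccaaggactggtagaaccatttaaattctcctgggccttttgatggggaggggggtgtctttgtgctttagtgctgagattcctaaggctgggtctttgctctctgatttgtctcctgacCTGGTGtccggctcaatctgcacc

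The 3 lists held 129843 (SOX2-ON), 131520 (SOX2-OFF) and 130348 (CEpiLC) peaks. The −log10 p of the peak ranked 20000 was 26.4, 21.2 and 10.6, and the median peak width was 621, 741 and 526 bp. These values grow with depth, which is unknown because the peak lists give no read totals, so peaks are compared between lists by presence, by rank within their own list (1 is the strongest by −log10 p) and by relative width, which is the width divided by the median width of their list. Widths in bp are given beside it where the choice matters. Where 3 values follow each other they are in the order SOX2-ON, SOX2-OFF, CEpiLC, and a fold between ranks is the larger rank over the smaller. A peak absent from a list was not detectable at the depth of that library, and the site is not shown to be closed. SOX2-ON and SOX2-OFF had 3.00 to 3.29 times the usual number of peaks per Mb on chromosomes 6 and 8. On chromosome 11, which carries Hes7 alone of the 10 genes, CEpiLC had 3.98 times, SOX2-ON 1.45 times and SOX2-OFF 1.49 times. All 7 caudal epiblast markers (T, Cdx1, Cdx2, Cdx4, Nkx1-2, Wnt3a and Fgf8) had a promoter peak in every list, as did all 3 neural markers (Sox1, Pax6 and Neurog2). Presence of these promoter peaks therefore did not differ between the lists, but their ranks did. Of the caudal markers, T ranked 21225, 11301 and 13877, Cdx1 22333, 13245 and 11620, and Cdx2 20090, 13713 and 10000. Cdx4 ranked 57998, 24666 and 32713, and Nkx1-2 30054, 24237 and 17717. Wnt3a (15287, 20011 and 18865) and Fgf8 (18505, 18803 and 24551) instead ranked best in SOX2-ON. Of the neural markers, Sox1 ranked best in SOX2-ON (11741, 16422 and 19482) and Pax6 worst (41372, 29595 and 31105). Neurog2 ranked nearly alike (13051, 12414 and 13245). The same presence held for both endoderm markers (Sox17 and Foxa2), for 4 of 5 naive pluripotency markers (not Esrrb) and for 2 of 3 paraxial mesoderm markers (not Meox1). Of the naive markers, Klf4 (7479, 12551 and 16546) and Nanog (15552, 16815 and 22031) ranked best in SOX2-ON. Tfcp2l1 (8187, 5129 and 4734) ranked worst there, and Klf2 (5744, 5037 and 7231) lay between. Sox17 (59398, 32405 and 22355) and Foxa2 (14220, 8766 and 8503) ranked worst in SOX2-ON. Esrrb lacked a peak at its GENCODE gene start in SOX2-ON only, and at another start it ranked 14669, 13732 and 16672. At Sox2 itself the promoter peak ranked 9717, 11791 and 12565, which does not test the genotype.

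**Figure D1:**
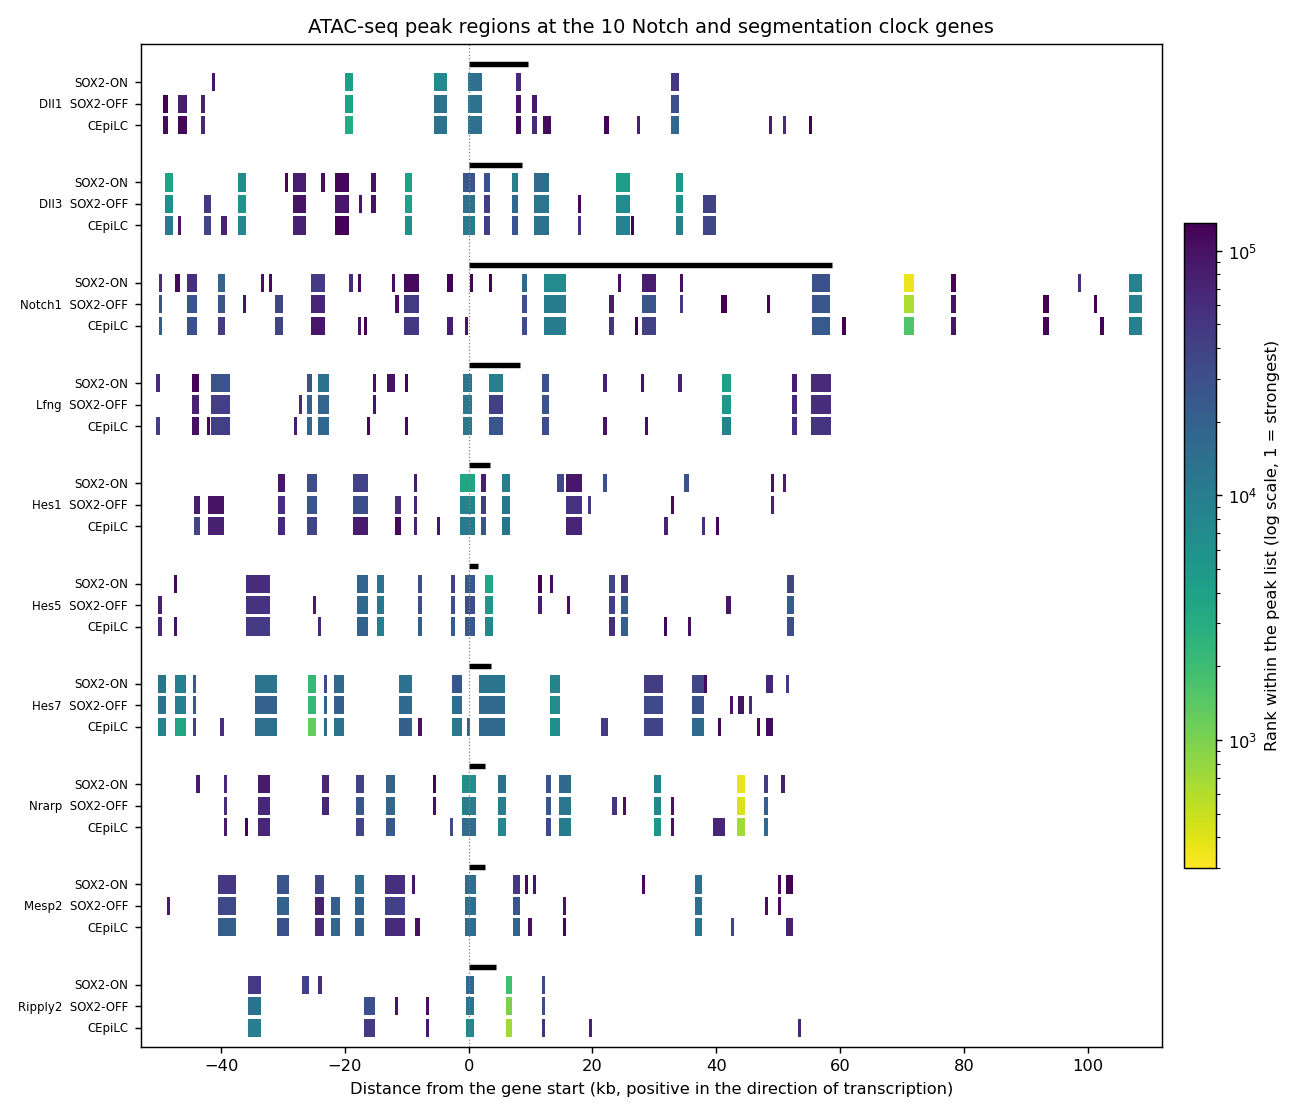
Peak regions at the 10 genes by distance from the gene start in kb (x axis, positive in the direction of transcription), with 1 row per gene and list. Each block is a region with a peak in that list, coloured by rank within the list on a log scale, and black bars are gene bodies. The blocks at most gene starts occur in all 3 rows, the Mesp2 block 21.5 kb upstream is missing from SOX2-ON, and Hes1 has 3 blocks between 14.9 and 35.2 kb downstream in SOX2-ON only.

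Regions at the 10 genes were shared between the lists more often than regions in general. Of the 216, 92 (42.6%, Wilson 95% interval 36.2 to 49.3, which covers counting over regions only) had a peak in all 3 lists, against a background of 27% over all regions. Without chromosomes 6, 8 and 11, 79 of 191 regions at the genes did, against a background of 31.3%. The windows also held 31 other coding genes, and 26 of the 92 shared regions lay at a promoter of such a neighbour and 9 at a promoter of the member itself. Within 1 kb of a coding transcript start, 35 of 43 regions (81.4%, background 78.3%) were in all 3 lists. Farther from any such start, 57 of 173 were (32.9%, interval 26.4 to 40.3, background 21.7%), a split that was added after the data were seen.

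**Figure D2:**
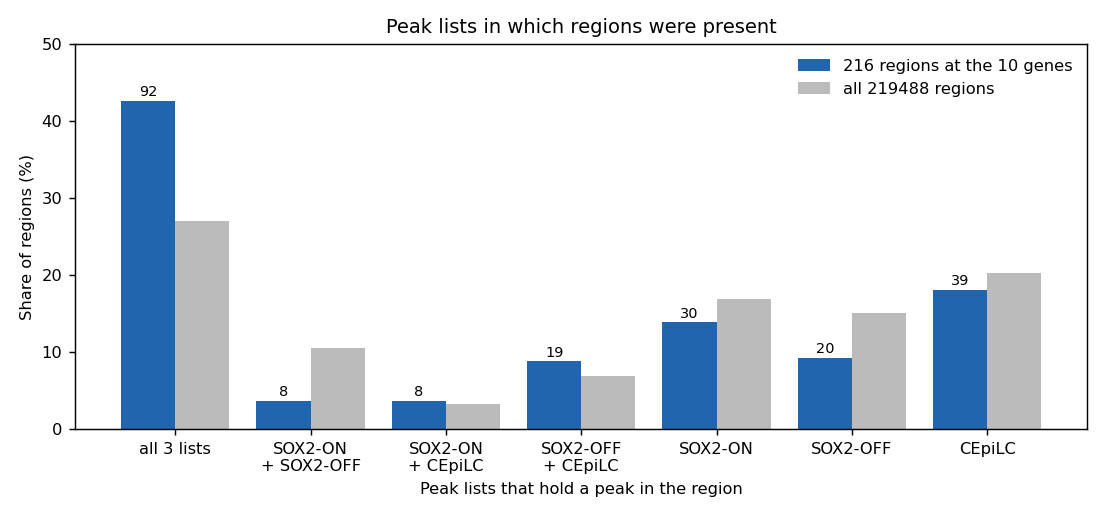
Share of regions (y axis, %) by the combination of lists that held a peak (x axis), for the 216 regions at the 10 genes (blue, with counts) and for all 219488 regions (grey). The class of all 3 lists is larger at the 10 genes (42.6% against 27%), and the class absent from CEpiLC alone is smaller (3.7% against 10.5%). Without chromosomes 6, 8 and 11, not plotted, the shares of these classes over all regions are 31.3% and 6.55%.

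Shares of regions are also plotted for the classes with fewer lists. Over all chromosomes, the largest gap to the background there was for regions absent from CEpiLC alone. That gap was smaller than that of the all-list class. Absent from CEpiLC alone were 8 regions (3.7%), against 10.5% of all regions and 6.55% without chromosomes 6, 8 and 11. Another 19 were absent from SOX2-ON alone (8.8%, all regions 6.92%) and 8 from SOX2-OFF alone (3.7%, all regions 3.28%). A peak in a single list was found in 30 regions for SOX2-ON (13.9%, all regions 16.9%), 20 for SOX2-OFF (9.26%, all regions 15.1%) and 39 for CEpiLC (18.1%, all regions 20.3%). Without chromosomes 6, 8 and 11 the background for SOX2-OFF only was 13.3%. Which class had the largest gap therefore depended on these chromosomes. The median best rank of these single-list regions was 96514, 95714 and 96926, and single-list regions in general had medians of 89881, 101079 and 93508. Regions in all 3 lists had a median best rank of 16952 at the 10 genes and 25548 in general, so single-list regions were the weaker ones both at these genes and elsewhere.

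Between SOX2-ON and SOX2-OFF, 38 of 138 regions in SOX2-ON were absent from SOX2-OFF (27.5%, background 34.9%), and 39 of 139 in SOX2-OFF were absent from SOX2-ON (28.1%, background 37%). The counts in the 2 directions were nearly equal. Against CEpiLC, 38 of 138 SOX2-ON regions were absent (27.5%, background 47.5%) and 28 of 139 SOX2-OFF regions were absent (20.1%, background 43%). In the other direction, 58 of 158 CEpiLC regions were absent from SOX2-ON (36.7%, background 47.4%) and 47 of 158 from SOX2-OFF (29.7%, background 41%). In all 6 directions the share at the 10 genes was below the background, which came to 33.3% to 44.7% in the 4 directions that involve CEpiLC once chromosomes 6, 8 and 11 were left out. At the genes, 36 of 122 SOX2-ON and 25 of 123 SOX2-OFF regions were then absent from CEpiLC. In the other direction, 52 of 138 CEpiLC regions were absent from SOX2-ON and 40 of 138 from SOX2-OFF. The order of the 2 directions between CEpiLC and the engineered line depended on which peaks were admitted. With peaks of −log10 q of at least 5 only, which kept 37.7%, 34.3% and 22.4% of the peaks of the 3 lists, 21 regions of SOX2-ON were absent from CEpiLC (28.4%, background 47.7%) and 9 the other way (14.5%, background 12.3%). For SOX2-OFF the same threshold gave 19 absent from CEpiLC (23.8%, background 39.7%) and 1 the other way (1.61%, background 5.86%). A fixed q keeps fewer peaks of CEpiLC, and the background was lopsided in the same way. With the strongest 50000 peaks of each list, 10 regions of SOX2-ON were absent from CEpiLC (13%, background 34.8%) and 17 the other way (20.2%, background 34.2%), while SOX2-OFF gave 6 in each direction (7.14%, backgrounds 24.3% and 23.1%).

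Among regions shared by a pair of lists, a rank at least 2-fold better (nearer to 1) in SOX2-ON than SOX2-OFF was found in 3 of 100 (background 6.03%), and the opposite in 8 of 100 (6.68%). Between SOX2-ON and CEpiLC, 12 of 100 ranked at least 2-fold better in SOX2-ON (9.46%) and 16 of 100 in CEpiLC (12.8%). Between SOX2-OFF and CEpiLC only 2 of 111 (6.64%) and 3 of 111 (6.3%) differed that far. At these genes SOX2-OFF and CEpiLC ranked regions most alike of the 3 pairs by this count, and every interval of these shares but the pair of SOX2-OFF better than CEpiLC (0.496 to 6.33%) included its background.

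Relative width at least 1.5-fold larger was found in 10 of 100 shared regions for SOX2-ON over SOX2-OFF (background 18.8%) and 16 of 100 for the opposite (21.3%). Against CEpiLC, 10 of 100 were wider in SOX2-ON (18.8%) and 26 of 100 wider in CEpiLC (24.7%). For SOX2-OFF and CEpiLC, 11 of 111 were wider in SOX2-OFF (19.6%) and 39 of 111 wider in CEpiLC (27.1%). Relative width divides by a median that is smallest in CEpiLC (526 bp) and largest in SOX2-OFF (741 bp), and the direction for SOX2-OFF and CEpiLC turned with widths in bp. By that measure 25 of 111 were wider in SOX2-OFF (32.6%) and 10 of 111 in CEpiLC (10.5%). For SOX2-ON and CEpiLC, 13 of 100 were wider in bp in SOX2-ON (24.6%) and 22 of 100 in CEpiLC (17.2%), so the direction held at the 10 genes but turned in the background. Between SOX2-ON and SOX2-OFF, 6 of 100 were wider in bp in SOX2-ON (12.8%) and 22 of 100 in SOX2-OFF (28.3%).

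Strong peaks, the strongest 20000 of each list, were seldom missing from another list. Of 54 regions with a strong peak, 1 (1.85%, interval 0.328 to 9.77) lacked a peak in another list, and the interval included the background of 9.29%. That region lay 21.5 kb upstream of Mesp2. Among the 53 strong regions in all 3 lists, 2 ranked at least 2-fold better in SOX2-ON than in both other lists (3.77%, all regions 5.64%) and 2 ranked at least 2-fold worse (3.77%, all regions 5.21%). The better ones were the Hes1 promoter and a region inside Lfng, and the worse ones lay 34.6 kb upstream of Ripply2 and 48.0 kb downstream of Nrarp.

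**Figure D3:**
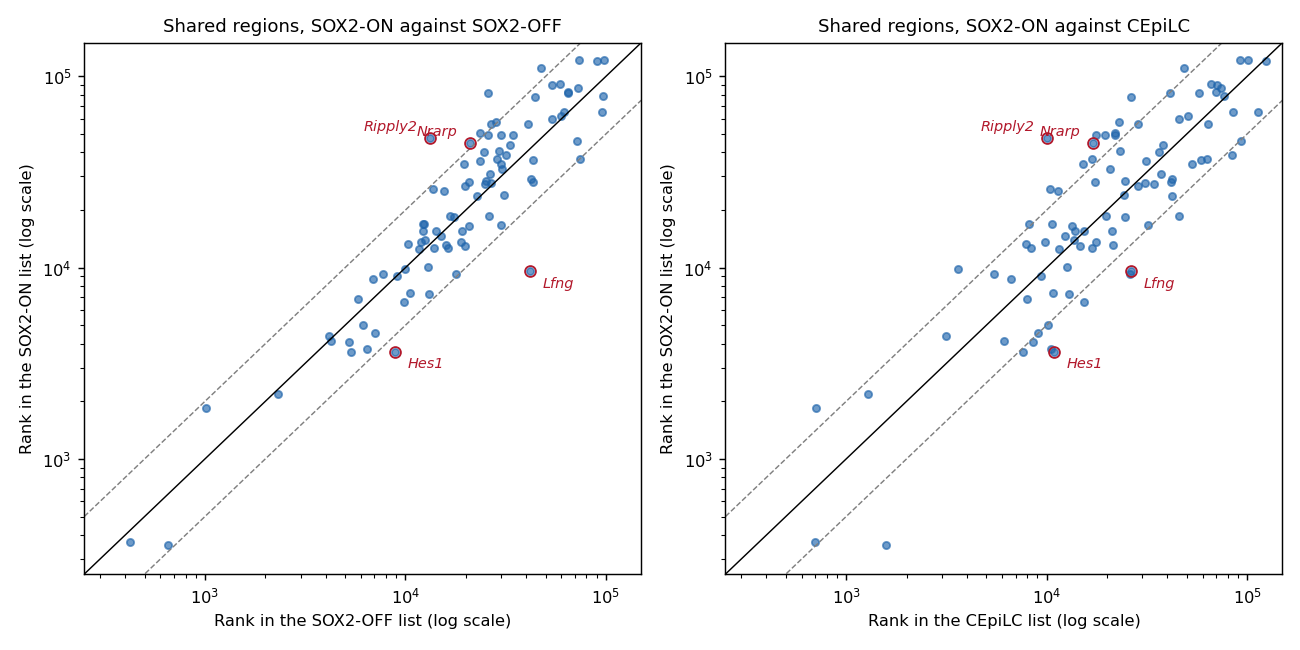
Rank in SOX2-ON (y axis, log scale) against rank in SOX2-OFF (left) or CEpiLC (right, both log scale) for the 92 regions in all 3 lists, 1 point each. The solid line marks equal rank, dashed lines a 2-fold difference, and red circles the 4 strong regions with a 2-fold difference from both lists. Of these, Hes1 and Lfng lie below both lower lines and Ripply2 and Nrarp above both upper lines. Weaker regions 9.3 and 49.8 kb upstream of Notch1 and 25.2 kb downstream of Hes5 also lie above both upper lines, without circles.

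Dll1 and Dll3 encode Delta-type ligands, of which DLL1 activates the receptor on neighbouring cells and DLL3 does not. The Dll1 promoter region (chr17:15374702-15377026) ranked 13931 in SOX2-ON against 12456 in SOX2-OFF and 13731 in CEpiLC, a spread of at most 1.12-fold. A region 4.5 kb upstream of Dll1, with no annotated gene in it, ranked 7240, 13129 and 12981, with relative widths of 3.52, 1.71 and 2.32 (2187, 1270 and 1220 bp). The Dll1 promoter was thus placed alike in the 3 lists, while the upstream region stood higher and was wider in SOX2-ON, short of the 2-fold limit (1.81- and 1.79-fold). A further region, 33.3 kb downstream, had the opposite order, with ranks of 49617, 29962 and 17554. The best ranked region outside the promoter (4408, 4135 and 3137) lay at the promoter of the neighbour Fam120b.

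At Dll3 the order was reversed between the start and the 3′ part of the gene. The promoter region (chr7:28301232-28303152) ranked 25668 in SOX2-ON against 13712 in SOX2-OFF and 10390 in CEpiLC. The region 7.5 kb downstream of the start, over exons of Dll3, ranked 9263, 17959 and 26037. The promoter was lowest and the exonic region highest in SOX2-ON, by 1.87- and 1.94-fold against SOX2-OFF and by 2.47- and 2.81-fold against CEpiLC. The best ranked region outside the promoter (3738, 6445 and 10556) was the promoter of Rps16, a ribosomal protein gene 48.4 kb upstream.

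Notch1 encodes the receptor. Its GENCODE gene start, that of an extended transcript, had no peak in SOX2-OFF and weak ones in the other lists, at rank 127144 (SOX2-ON) and 93679 (CEpiLC). The start used by RefSeq lies in a wide region (chr2:26500996-26504522) that ranked 7364, 10481 and 10707, with relative widths of 5.68, 3.54 and 5.00 (3527, 2623 and 2630 bp). By that start Notch1 had a promoter peak in every list. An intronic region 9.1 kb inside the extended gene ranked 16623, 29996 and 31952. Another intronic region, 29.2 kb inside, ranked 81594, 25954 and 41089, so regions within the extended gene differed in opposite directions. By the RefSeq start, the former lies upstream of the gene. A region 30.6 kb upstream of Notch1 ranked 35625 in SOX2-OFF and 38132 in CEpiLC and was absent from SOX2-ON.

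Lfng encodes Lunatic fringe, a glycosyltransferase that modifies NOTCH receptors and alters their response to ligands. Its promoter region (chr5:140606388-140607820) ranked 12517 in SOX2-ON against 11714 in SOX2-OFF and 11499 in CEpiLC, within 1.09-fold of each other. By contrast, a region 4.4 kb inside the gene (chr5:140610610-140612912) ranked 9575, 41770 and 26353. Its −log10 p was 87.6 in SOX2-ON, above that of the Lfng promoter in the same list (58.3), whereas in SOX2-OFF it was 7.51 against 49.8 at the promoter and in CEpiLC 7.79 against 19.7. Within SOX2-ON the internal region was thus the stronger of the pair, and within the other lists the promoter was. The rank of the internal region differed by 4.36-fold between SOX2-ON and SOX2-OFF and by 2.75-fold between SOX2-ON and CEpiLC.

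Hes1, Hes5 and Hes7 encode basic helix-loop-helix repressors, and Hes1 is also expressed widely in ES and progenitor cells. The Hes1 promoter region (chr16:30062980-30065394) ranked 3642 in SOX2-ON against 8912 in SOX2-OFF and 10830 in CEpiLC. Its relative widths were 3.89, 2.97 and 4.10 (2415, 2204 and 2154 bp), the largest being that of CEpiLC, whereas in bp it was that of SOX2-ON. In rank it stood 2.45-fold higher in SOX2-ON than in SOX2-OFF and 2.97-fold higher than in CEpiLC, and the latter pair differed by 1.22-fold. The window of Hes1 held no other coding gene. Downstream of the gene, regions at 14.9, 22.1 and 35.2 kb had peaks in SOX2-ON only, ranked 35926, 29133 and 27336. These 3 were singled out after their values were seen. They were among the 5 of 30 SOX2-ON-only regions at the 10 genes that ranked within 50000, against 18.1% of all 37015 regions found only in SOX2-ON. A region 6.0 kb downstream was placed alike in the lists (10117, 12947 and 12610). Other regions of the window went the other way. The region 2.4 kb downstream, over Hes1 exon sequence, ranked 78429, 44518 and 26251. Regions 43.9, 40.8 and 11.5 kb upstream had peaks in SOX2-OFF (81425, 96611 and 59760) and CEpiLC (37955, 74975 and 113082) but none in SOX2-ON.

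The Hes5 promoter region, whose sequence is given above, ranked 24005, 30915 and 24270 and was the lowest ranked member promoter in SOX2-OFF among those with a peak. It overlapped a neighbouring transcript, Gm20421, and strand cannot be told from accessibility. Regions 14.2 and 17.2 kb upstream of Hes5 ranked 13660, 11988 and 9844 and 18734, 16649 and 19667, each ahead of the promoter in every list. A strong region 3.3 kb downstream (3610, 5323 and 7643) lay at the promoter of Pank4.

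At Hes7, the core repressor of the clock, no peak came within 1 kb of the start in SOX2-ON or SOX2-OFF. In CEpiLC a narrow peak of 317 bp (chr11:69120200-69120516) covered the start and ranked 21146, with a fold enrichment of 1.54 and a −log10 p of 9.94, and it holds the RBPJ and CDX letters shown above. It was the best ranked of the single-list regions at the 10 genes, on the chromosome with excess peaks in CEpiLC, and the part of that excess in the result was not tested. Both flanks of the Hes7 start were accessible in every list. The region 1.9 kb upstream ranked 25242 in SOX2-ON against 15663 in SOX2-OFF and 11377 in CEpiLC, and the region 3.7 kb downstream, which runs into the neighbour Aloxe3, ranked 12597, 16315 and 16845. The upstream flank was thus lowest and the downstream flank highest in SOX2-ON.

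Nrarp encodes an ankyrin-repeat inhibitor of Notch signalling that is itself a Notch target. The Nrarp promoter region (chr2:25179753-25181962) ranked 6614 in SOX2-ON against 9784 in SOX2-OFF and 15421 in CEpiLC, a difference of 1.48-fold from SOX2-OFF and 2.33-fold from CEpiLC. A region 5.4 kb downstream ranked in the opposite order, 13275, 10258 and 7845. The region 48.0 kb downstream that ranked 44663, 21090 and 17086 lay over exons of Slc34a3. A narrow CEpiLC-only region 2.8 kb upstream, rank 32584, held the RBPJ letters in its central 200 bp.

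Mesp2 and Ripply2 act later in segmentation, MESP2 as a transcription factor that sets the somite boundary and RIPPLY2 as a co-repressor. The Mesp2 promoter region (chr7:79810118-79811838) ranked 15504, 14277 and 15334, within 1.09-fold of each other. The region 21.5 kb upstream (chr7:79788538-79789927) had no peak in SOX2-ON and ranked 21614 in SOX2-OFF and 18098 in CEpiLC, with relative widths of 1.51 and 2.42 (1119 and 1274 bp) and a −log10 p of 18.7 and 11.9. It lay in no annotated gene, 3861 bp from the start of Mesp1, a close relative of Mesp2, and could equally be counted with that gene. The −log10 p at rank 20000 was 26.4 in SOX2-ON, which lacked the region, 21.2 in SOX2-OFF and 10.6 in CEpiLC. Depth is unknown, and its part in this absence was not tested. The Mesp1 promoter itself ranked 15543, 19249 and 21254, higher in SOX2-ON. The neighbouring region 24.1 kb upstream of Mesp2 was also placed higher in SOX2-ON, at 36972, 74072 and 62711. A region 7.8 kb downstream of Mesp2 ranked 49605, 25759 and 19516.

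The Ripply2 window had 11 regions, the fewest of the 10 genes. Its promoter region (chr9:87015132-87016452) ranked 16946 in SOX2-ON against 12444 in SOX2-OFF and 8162 in CEpiLC. The region 34.6 kb upstream (chr9:86979897-86982008), in a non-coding transcript named Gm36539, ranked 47344, 13226 and 10091, a difference of 3.58-fold between SOX2-ON and SOX2-OFF and 4.69-fold between SOX2-ON and CEpiLC. A region 16.0 kb upstream had ranks of 29824 in SOX2-OFF and 45372 in CEpiLC and no peak in SOX2-ON, where instead regions at 26.4 kb (rank 40463) and 24.0 kb (rank 58075) were listed alone. The best ranked region, 6.5 kb downstream (1850, 1014 and 711), lay at the promoter of Cyb5r4. These 3 shared regions were placed lower in SOX2-ON than in the other lists, whereas the shared region 12.1 kb downstream ranked 35006, 30003 and 52905.

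**Figure D4:**
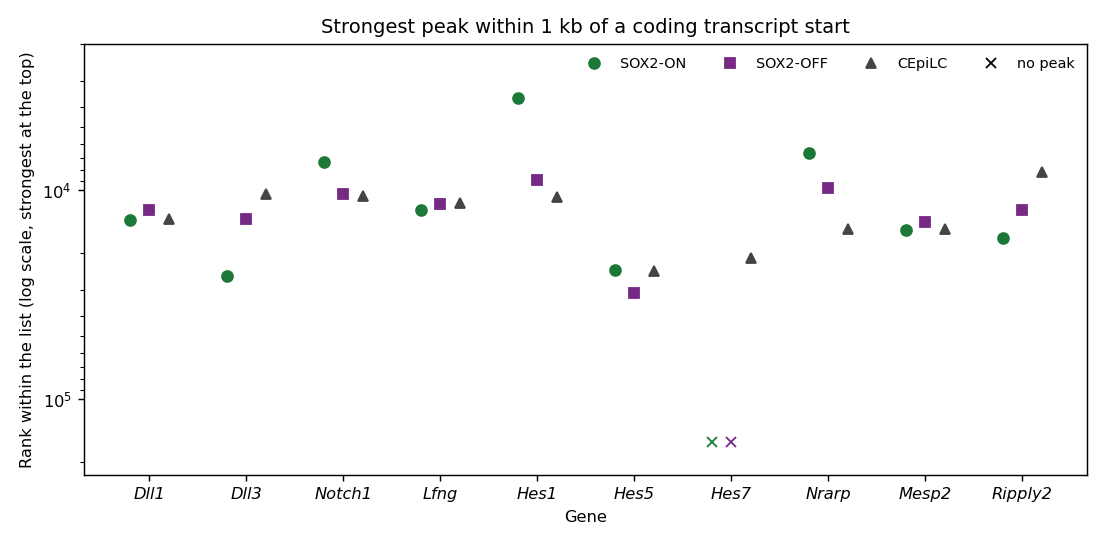
Rank within the list (y axis, log scale, strongest at the top) of the strongest peak within 1 kb of any coding transcript start of each gene (x axis), with 1 symbol per list and crosses for no peak. Hes1 in SOX2-ON has the best rank (3642), Dll1, Lfng and Mesp2 have nearly equal ranks in the 3 lists, and Hes7 has a peak in CEpiLC only.

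As a group, the promoters shown by rank were accessible in most cases. Within 1 kb of the gene start, 9 of 10 members had a peak in SOX2-ON (background 70.7% of coding genes), 8 of 10 in SOX2-OFF (71.4%) and 10 of 10 in CEpiLC (72.1%). Notch1 and Hes7 lacked one in at least 1 list, and the remaining 8 had one in all lists, against 67.2% of coding genes. With any coding transcript start counted, Notch1 joined them. Outside the promoters, the best ranked region was the promoter of a neighbouring gene in 9 of 10 windows, Hes1 being the exception.

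Other genes of the pathway gave similar counts. Of 25 other Notch core genes (receptors, ligands, RBPJ and its co-activators, and processing enzymes), 24 had a promoter peak in every list, and Rbpj lacked one at its GENCODE gene start in CEpiLC but had one at another start (ranks 3116, 3391 and 4394). All 8 other HES, HEY, MESP and RIPPLY genes had one in every list, with Hey1 ranked 733, 1703 and 1651. Of 16 other oscillating or presomitic genes, 15 had one in every list and Meox1 in none. Among these, Msgn1, a presomitic transcription factor gene, had a promoter peak that ranked 113530 in SOX2-ON against 18762 in SOX2-OFF and 23243 in CEpiLC. The share of regions in all 3 lists was 38.9% around the Notch core genes, 49.6% around the HES, HEY, MESP and RIPPLY genes and 42.8% around the oscillating or presomitic genes, beside 42.6% for the 10 members, and the Mesp1 window shares regions with that of Mesp2. Of the strong shared regions around the oscillating or presomitic genes, 8 of 57 ranked at least 2-fold worse in SOX2-ON than in both other lists and 3 ranked better. Around the Notch core genes 1 of 120 ranked worse and 3 better, and around the HES, HEY, MESP and RIPPLY genes 1 of 33 ranked worse and 2 better, beside 5.21% worse and 5.64% better over all regions.

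Sequence composition of the regions was described in their central 200 bp. The median GC content was 55% at the 10 genes and 49.5% over all regions. RBPJ letters were found in 14 of 216 regions (6.48%, all regions 4.75%), 6 of them among the 92 regions in all 3 lists. They included regions 7.9 and 2.5 kb upstream of Hes5, 33.3 kb downstream of Dll1 and 12.6 kb upstream of Nrarp, all in the 3 lists. N-box letters were found in 80 regions (37%, all regions 34.6%). The SOX letters were found in 0 of 216, which allows a share of up to 1.39%, against 3.27% of all regions. Among regions in all 3 lists they were found in 0 of 92, against 2.35% of all such regions. Among regions present in SOX2-ON only they were found in 0 of 30, a small number, against 5.84% of all such regions. Only the exact letters were counted and sites with a mismatch were not, so an absence of SOX sites is not shown. The letters of TCF/LEF were found in 3 regions (1.39% against 3.34%), those of CDX in 4 (1.85% against 2.19%) and those of T-box factors in 1 (0.463% against 1.09%). The SOX, TCF/LEF and CDX letters are rich in A and T, and the part of GC content in these shares was not tested.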

How the data were processed

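ATAC-seq of 50000 cells per sample gave 1 list of broad peaks for each of 3 samples. With release 1.0.0 of nf-core/atacseq, the authors trimmed reads, aligned them to mm10 with BWA, removed mitochondrial reads and called peaks with MACS2. The deposited fold enrichment of each peak is a ratio to local background, the deposited −log10 p and −log10 q are those of the caller, and the deposited score was not used. Peaks on 21 chromosomes were kept, none past the chromosome ends of GRCm38. Overlaps, ranks by −log10 p, relative widths and motif matches were computed in Python 3.11.15 (pandas 2.3.3, pysam 0.24.0) and tested on simulated data. Settings tried for the window, q threshold, overlap, promoter distance and rank or width limits are given in the closing section. Regions named were the promoter region, the best ranked region outside it, strong regions missing from a list and those 2-fold apart in rank, and others were named after their values were seen. Members and gene lists were chosen with earlier results of these data known. No comparison was tested, since each group had 1 sample.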

Additional observations from a re-analysis of the deposited data

How the results depend on the processing

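No paired analysis was possible because there was 1 sample in every group. Of 80 alternative values, 34 stayed within 1.5 times the reported count and 46 did not. Most of the latter follow from how many peaks or how much sequence a setting admits. The counts below show only how far the settings moved them. Those over any pair, and most of those at alternative settings, have no share over all regions beside them. The reported counts were 92 regions in all 3 lists, then 38 and 39 in SOX2-ON or SOX2-OFF and absent from the other, 38 and 58 for SOX2-ON with CEpiLC, 28 and 47 for SOX2-OFF with CEpiLC, 34 with a 2-fold rank difference in any pair, 72 with a 1.5-fold width difference and 1 strong region missing. With a window of 10 kb they were 36, then 8 and 6, 9 and 14, 5 and 12, then 15, 21 and 0. With 100 kb they were 167, then 62 and 79, 71 and 115, 55 and 82, then 56, 138 and 2. With a −log10 q of at least 5, all 3 lists shared 53 regions, the pairs gave 7 and 13, 21 and 9, 19 and 1, and 18 ranks and 19 widths differed. A −log10 q of at least 2 gave 16 and 23, 19 and 23, 16 and 13, and 41 widths. The strongest 50000 peaks of each list gave 7 and 14, 10 and 17, 6 and 6. So the order of the 2 directions between SOX2-ON and CEpiLC turned at a −log10 q of 5, and between SOX2-OFF and CEpiLC at both thresholds. A rank limit of 3-fold left 4 regions and a width limit of 2-fold left 42. Counting the strongest 5000 or 50000 peaks as strong gave 0 and 18 strong regions missing from a list. Away from coding starts, a setting added after the data were seen, 57 regions were in all 3 lists. Member promoters with a peak in all lists numbered 8 within 1 kb of the gene start, 8 within 500 bp and 9 at any coding transcript start. With 500-bp intervals around peak midpoints all 3 lists shared 80 regions and the pairs gave 49 and 46, 50 and 72, 42 and 67. Widths in bp gave 63 regions with a 1.5-fold difference, and the order for SOX2-OFF and CEpiLC turned. Leaving out chromosomes 6, 8 and 11, ranking by fold enrichment and requiring 10% overlap each left the counts within 1.5 times. Depth per library is unknown, broad calling joins neighbouring sites, and without replicates none of these differences has an error.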
